A study of Arabidopsis thaliana with 6 samples.

Results

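The *CYP81D* genes of Arabidopsis encode cytochrome P450 enzymes, and 10 of the 24340 genes in the expression table were taken as members by their identifiers. They are *CYP81D1* (AT5G36220), *CYP81D2* (AT4G37360), *CYP81D3* (AT4G37340), *CYP81D4* (AT4G37330), *CYP81D5* (AT4G37320), *CYP81D6* (AT2G23220), *CYP81D7* (AT2G23190), *CYP81D8* (AT4G37370), *CYP81D10* (AT1G66540) and *CYP81D11* (AT3G28740). AT1G66540 carries no symbol in the table or in RefSeq and is named here after the member list. RNA sequencing was done on shoot apices of *ap1, cal* double mutants in the Col-0 background, taken from inflorescences of 6-week-old plants. These mutants lack the floral meristem factors APETALA1 and CAULIFLOWER and pile up arrested inflorescence and young floral meristems, so their apices are a source of meristem tissue that differs from a wild-type apex. The 3 SNP samples were exposed for 24 h to 1 mM sodium nitroprusside (SNP), a nitric oxide donor that also contains iron and cyanide, in 0.025% Silwet, and the 3 mock samples to 0.025% Silwet alone. No sample received iron, cyanide or spent SNP, so these cannot be told apart as agents. The family was chosen by the SNP against mock values of the same 6 samples, in which some of its members stood out. The levels and differences of its members are therefore a description, and no p-value is given for them.

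Cytochrome P450s are heme enzymes that insert an oxygen atom into small molecules, and most plant P450s sit in the membrane of the endoplasmic reticulum, where a reductase passes them electrons from NADPH. In the detoxification of foreign or harmful compounds, oxidation by a P450 is followed by conjugation through glutathione transferases and glycosyltransferases and by export into the vacuole. *CYP81D11* is known as a gene induced by xenobiotics and by the volatile cis-jasmone, its induction needs class II TGA transcription factors, and plants that overexpress it release volatiles that alter insect behavior. *CYP81D8* is often used as a marker of oxidative and xenobiotic stress. TGA factors bind DNA at the core letters TGACG, and WRKY factors bind at the core letters TTGAC.

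All 10 genes encode the loop that holds the heme, including those that were barely transcribed here. The coding stretch of this loop, read from the RefSeq annotation of TAIR10.1, is shown for each member with the codon of the heme-binding cysteine in capitals.
CYP81D1: tttggattaggtagaagagcgTGTcctgga
CYP81D2: ttcgggctaggaagaagggcaTGTcctgga
CYP81D3: tttgggctaggaagaagggcgTGTcctggg
CYP81D4: tttgggatgggacgaagagctTGTcctgga
CYP81D5: tttgggatgggacgacgagctTGTcctgga
CYP81D6: tttgggatgggacgacgagccTGTcccggg
CYP81D7: tttgggtttggacgacgagctTGTcccggg
CYP81D8: tttgggttaggaagaagggcgTGTcctggt
CYP81D10: ttcgggttaggaagaagagcgTGTcctggt
CYP81D11: tttgggattggacgacgatctTGCcctggt

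The cysteine is residue 442 of *CYP81D11*, 433 of *CYP81D8* and 440 of *CYP81D1*, while in *CYP81D10* it is residue 321, since the annotated coding region of *CYP81D10* has 1161 bases against 1479 to 1632 in the other members. Over the 45 pairs of members the coding sequences were 64.5% to 89.9% identical, with a median of 70.2%. The closest pair was *CYP81D6* and *CYP81D7* on chromosome 2. *CYP81D11* was at most 73.8% identical to another member, and *CYP81D8* was 79.6% identical to *CYP81D10*. Against 8 genes of the subfamilies CYP81F, G, H and K the identity was 59.8% to 67.2%. Of the stretches of 75 bases, the read length of the study, in the annotated transcripts, 0 were shared between *CYP81D1*, *CYP81D2*, *CYP81D3*, *CYP81D4*, *CYP81D5*, *CYP81D8*, *CYP81D10* or *CYP81D11* and any other annotated gene. *CYP81D6* and *CYP81D7* shared 9 such stretches, 0.611% and 0.578% of their own, so reads of these genes could be exchanged only at these places as far as exact matches go.

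The values are TPM, transcripts scaled to the same total in each sample, in which the authors divided the reads of each gene by its length before scaling, so levels of different genes can be compared per length. Multiplied by exon length, 99.4% of all values in the table came out whole to within 0.05 of a sample's smallest step, and this held in all 6 samples for all 10 members. Taking the step as 1 read, the samples held 51879530 to 99089586 reads on genes. Meristem genes were present in all samples, with *STM* between 105.3 and 137.5 TPM, *KNAT1* between 74.3 and 92.6 TPM and *CLV3* between 4.87 and 7.90 TPM, while the root hair gene *EXPA7* was at most 0.0298 TPM. The 7 shoot apex markers summed to 392.3 to 447.8 TPM in the mock and 361.4 to 402.9 TPM in the SNP samples. By the criterion given next, the floral gene *UFO* was the only one of the 7 called, higher at 22.9 ± 2.10 TPM after SNP against 14.3 ± 2.60 TPM (SD, n = 3). *CUC2* had its 3 SNP samples below its mock samples, at 21.4 ± 1.05 against 28.4 ± 3.82 TPM, without a call. The 8 markers of other cell types in the table summed to 1889 to 2774 TPM in the mock and 2585 to 3248 TPM in the SNP samples, most of it the Rubisco gene *RBCS1A*. Of these only *SUC2* of phloem companion cells met this criterion. It averaged 24.7 ± 7.18 TPM in the mock and 50.9 ± 5.48 TPM in the SNP samples (SD, n = 3). Without a call, the floral organ genes *AP3* and *AG* had their 3 SNP samples below their mock samples. Their means were 1.94 against 4.65 TPM and 0.529 against 1.27 TPM. The xylem gene *IRX3* had its 3 SNP samples above its mock samples, at a mean of 5.22 against 3.15 TPM, also without a call. The part of these markers in the results was not tested. In bulk tissue, fewer cells that express a gene and less RNA per cell cannot be told apart.

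A gene was fitted with limma on log2(TPM + 0.5) if its mean reached 0.5 TPM. It was called by the cutoffs of the study's criterion, a 1.5-fold change and a p below 0.01 before adjustment. The methods of the study name DEGseq for these cutoffs, while the submitters' notes name DESeq2 and the reporting summary names both. Only the cutoffs are shared with the fit used here. Here the p came from limma and the fold change from log2(TPM + 0.5). For genes with low values this scale makes a change look smaller than it is. In all, 18966 genes were tested, of which 16.9% were called, 10.5% higher and 6.4% lower after SNP. With 75th percentile scaling the split moved from 1991 higher and 1214 lower to 1707 higher and 1619 lower. Of the 10 members, 6 passed the filter on low values. *CYP81D11*, *CYP81D8* and *CYP81D1* were called higher, *CYP81D4*, *CYP81D5* and *CYP81D10* were not called, and 0 were called lower. The SNP samples lay above all mock samples in the 3 called members, beside 29.2% of all tested genes, and below them in 0 tested members, beside 22% of all tested genes. Nothing is read from this share, because the comparison was in view when the family was chosen.

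**Figure D1:**
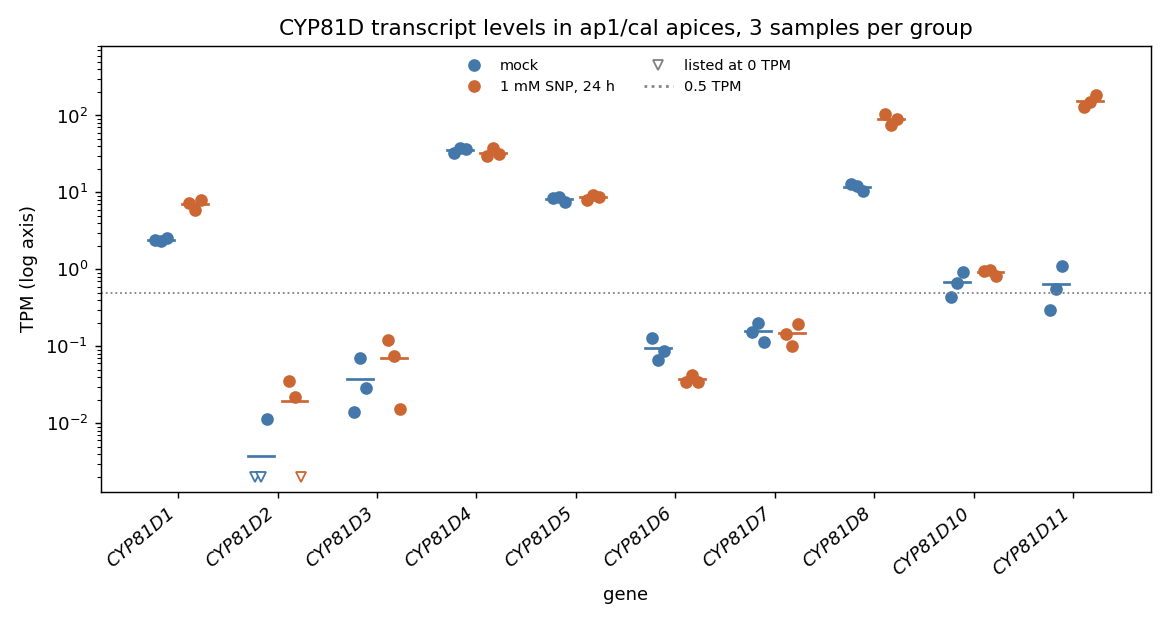
TPM of the 10 *CYP81D* genes in each of 3 mock (blue) and 3 SNP (orange) samples on a log axis, with the mean of each group as a line. Open triangles mark samples in which a gene was listed at 0, and the dotted line is the limit of 0.5 TPM that the mean of a tested gene had to reach. The SNP samples of *CYP81D11* (128.5 to 182.5 TPM), *CYP81D8* (75.2 to 104.2 TPM) and *CYP81D1* (5.91 to 7.86 TPM) lie above all their mock samples, while those of *CYP81D4* and *CYP81D5* overlap theirs.

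*CYP81D11* had 0.297, 0.558 and 1.11 TPM in mock replicates 1, 2 and 3, and 128.5, 151.0 and 182.5 TPM in SNP replicates 1, 2 and 3. The lowest SNP sample was far above the highest mock sample. The mock mean was 0.655 ± 0.416 TPM and the SNP mean 154.0 ± 27.1 TPM (SD, n = 3 each), a ratio of 235. This ratio rested on few reads in the mock samples and was 360 without mock replicate 3 and 185 without mock replicate 1. The log2 difference was 7.11 (standard error 0.26), and it depended on the pseudocount because of the low mock level, with 7.81 at a pseudocount of 0.1 and 6.56 at 1. The mock values rested on 19, 43 and 104 reads and the SNP values on 7694, 7239 and 10848 reads. Relative to their mean, the mock samples of *CYP81D11* varied more than those of the other called members, with an SD of 63.4% of the mean against 11% in *CYP81D8* and 3.73% in *CYP81D1*. *CYP81D11* overlaps the tail of its neighbor *HMG* (AT3G28730), which is transcribed from the other strand, by 32 bases. The methods describe the libraries as strand-specific, but how the counting used strand is not given in the sources used here. *HMG* was at 149.4 ± 7.71 TPM in the mock and 147.5 ± 2.46 TPM in the SNP samples (SD, n = 3; log2 difference -0.02, standard error 0.08, adjusted p = 0.884 from limma).

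*CYP81D8* had 12.8, 12.2 and 10.3 TPM in mock replicates 1, 2 and 3, and 104.2, 75.2 and 90.5 TPM in the SNP replicates. Unlike *CYP81D11*, it was clearly expressed without SNP, where it was the second most abundant member. The mock mean was 11.8 ± 1.30 TPM and the SNP mean 90.0 ± 14.5 TPM (SD, n = 3 each), a ratio of 7.63, and the log2 difference was 2.87 (standard error 0.14). Between 920 and 6994 reads lay behind each value.

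*CYP81D1* had 2.39, 2.36 and 2.53 TPM in the mock and 7.38, 5.91 and 7.86 TPM in the SNP replicates. Its ratio of means was 2.91, with a log2 difference of 1.36 (standard error 0.14) and 240 to 735 reads behind each value. Its 3 SNP samples all lay above its mock samples.

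The members without a call include the most abundant one of the mock apices. *CYP81D4* had 32.9, 38.1 and 36.2 TPM in the mock and 29.3, 37.5 and 31.9 TPM in the SNP replicates, and the groups overlapped, with a log2 difference of -0.12 (standard error 0.12). *CYP81D5* had 8.41, 8.69 and 7.62 TPM in the mock and 8.02, 9.39 and 8.69 TPM in the SNP replicates, again with overlap and a log2 difference of 0.07 (standard error 0.11). Both were measured on at least 602 reads per sample. *CYP81D10* had 0.443, 0.662 and 0.938 TPM in the mock and 0.946, 0.975 and 0.834 TPM in the SNP replicates, on 40 to 124 reads. Its highest mock sample exceeded its lowest SNP sample, and the log2 difference was 0.28 (standard error 0.19).

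The other 4 members stayed under the filter in both groups and were not tested. *CYP81D7* lay between 0.102 and 0.203 TPM over the 6 samples, on 5 to 16 reads. *CYP81D3* lay between 0.0141 and 0.121 TPM, on 1 to 8 reads. *CYP81D6* was at 0.129, 0.0669 and 0.0882 TPM in the mock and at 0.0345, 0.0431 and 0.0347 TPM in the SNP replicates. The SNP values of *CYP81D6* lay below the mock values, but each rested on 2 reads, which is less than the 3 reads that a count of 0 allows. *CYP81D2* was listed at 0 in mock replicates 1 and 2 and SNP replicate 3, where 3 reads would have been 0.0499, 0.0414 and 0.0537 TPM, and had at most 2 reads in the other samples. For *CYP81D2*, *CYP81D3*, *CYP81D6* and *CYP81D7* a fall or a small rise was not detectable at this depth, and this limit covers counting error only. With at most 16 reads in any sample, these 4 members did not reach the SNP level of any called member.

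Summed over the 10 genes, the transcript level was 57.5, 62.9 and 59.0 TPM in mock replicates 1, 2 and 3 and 278.7, 280.3 and 322.5 TPM in SNP replicates 1, 2 and 3. The sum was thus 4.91 times higher on average after SNP. *CYP81D11* made up 65.5% and *CYP81D8* 33.4% of the difference between the means. In the mock samples *CYP81D4* carried 59.7 ± 2.25% of the sum (SD, n = 3), *CYP81D8* 19.7 ± 2.41%, *CYP81D5* 13.8 ± 0.852% and *CYP81D11* 1.10 ± 0.707%. In the SNP samples *CYP81D11* carried 52.2 ± 5.44%, *CYP81D8* 30.8 ± 5.78% and *CYP81D4* 11.3 ± 1.87%. The order of the mean levels in the mock samples was *CYP81D4*, *CYP81D8*, *CYP81D5*, *CYP81D1*, *CYP81D10*, *CYP81D11*, *CYP81D7*, *CYP81D6*, *CYP81D3* and *CYP81D2*. Neighbors in this order had no sample in common range down to *CYP81D1* and *CYP81D10*, while *CYP81D10* overlapped *CYP81D11*, *CYP81D7* overlapped *CYP81D6* and *CYP81D6* overlapped *CYP81D3*. After SNP the order began with *CYP81D11*, *CYP81D8*, *CYP81D4*, *CYP81D5* and *CYP81D1*, each apart from the next. Relative to 204 other P450 genes in the table, named by the form of their symbol or synonym, the family went from 2.30 ± 0.0565% to 9.28 ± 0.739% of all P450 TPM (SD, n = 3). The other P450 genes summed to 2535 ± 55.7 TPM in the mock and 2872 ± 33.7 TPM in the SNP samples.

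**Figure D2:**
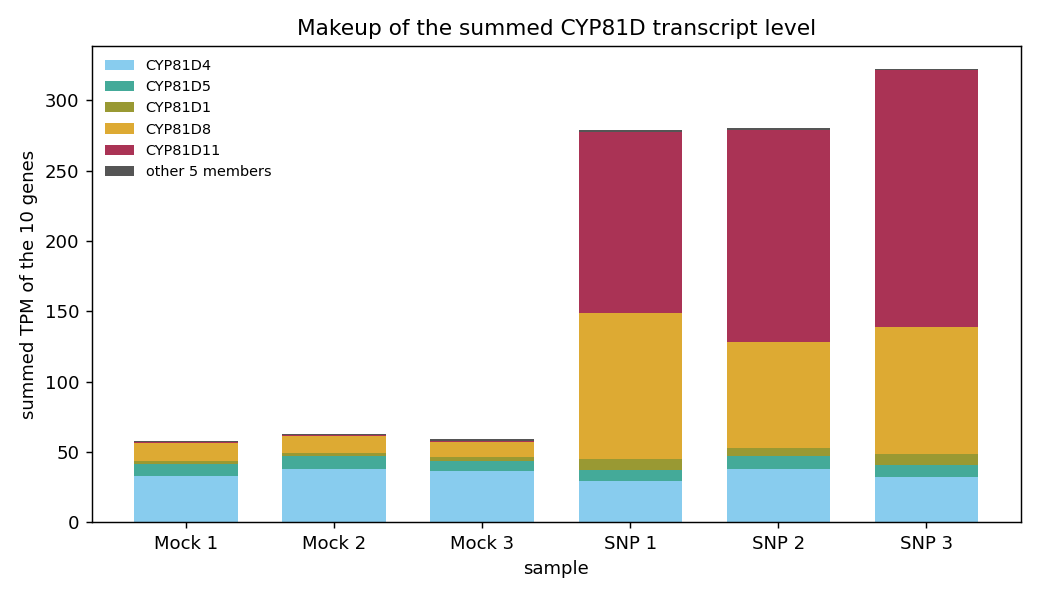
Summed TPM of the 10 *CYP81D* genes in each sample, with the bar split by member. The mock bars end between 57.5 and 62.9 TPM and consist mainly of *CYP81D4*, and the SNP bars end between 278.7 and 322.5 TPM and consist mainly of *CYP81D11* and *CYP81D8*, with *CYP81D4* between 29.3 and 37.5 TPM.

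Of the members, 5 stand side by side on chromosome 4 within 12.4 kb of TAIR10.1, all transcribed from the same strand, in the order *CYP81D5*, *CYP81D4*, *CYP81D3*, *CYP81D2* and *CYP81D8*. Their levels were not alike. *CYP81D8* at one end of the run was 7.63 times higher after SNP. Its neighbor *CYP81D2*, 881 bases away and 79.1% identical in coding sequence, had at most 2 reads in any sample. *CYP81D3* was near 0 as well, and *CYP81D4* and *CYP81D5* were expressed at overlapping levels in both groups. On the outer side of *CYP81D8*, at a distance of 72 bases, AT4G37380 had 6.15 ± 1.02 TPM in the mock and 6.08 ± 0.199 TPM in the SNP samples (SD, n = 3; log2 difference 0.00, standard error 0.14, adjusted p = 0.988 from limma). On the outer side of *CYP81D5*, *CYP81H1* had a log2 difference of -0.25 (standard error 0.13, adjusted p = 0.198 from limma). Around the single genes the picture was similar. AT3G28750, which lies 945 bases from *CYP81D11*, had a log2 difference of 0.19 (standard error 0.13, adjusted p = 0.319 from limma), and AT5G36210, 238 bases from *CYP81D1*, one of -0.05 (standard error 0.11, adjusted p = 0.778 from limma). In all, 0 of the 8 neighboring genes outside the family that were tested were called, beside 16.9% of all tested genes, so with so few genes this count is near the background.

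**Figure D3:**
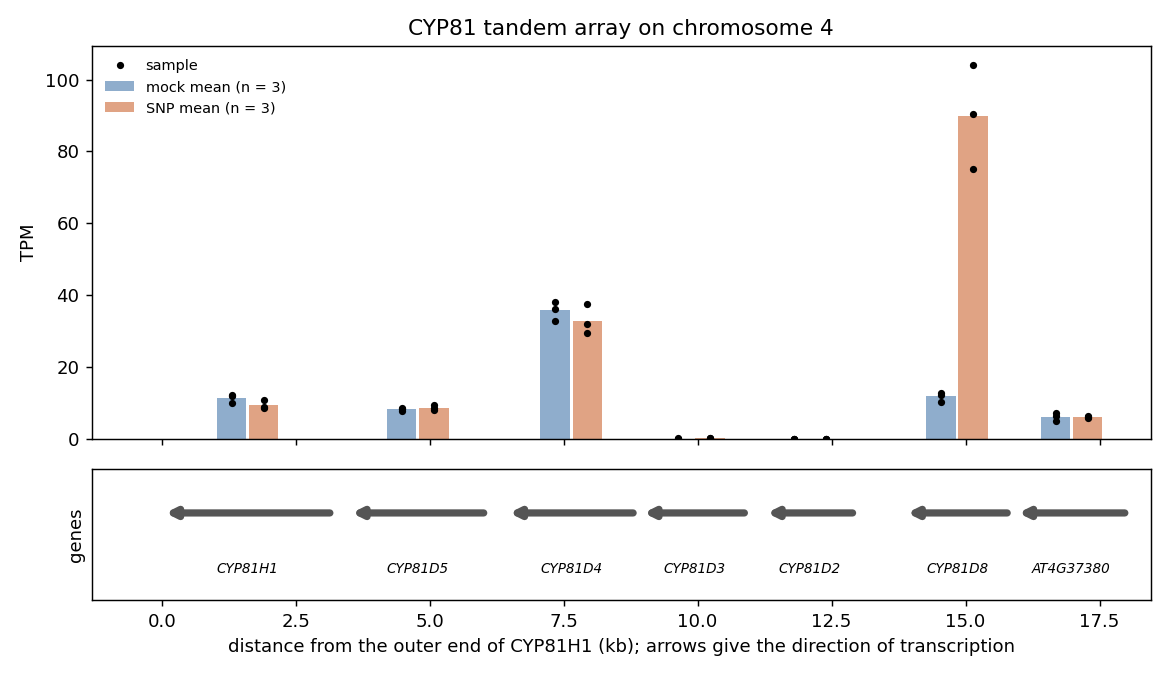
Mean TPM (bars, n = 3) and single samples (points) of the genes in the *CYP81* run on chromosome 4 in mock (blue) and SNP (orange) samples, above a map of the genes in kb from the outer end of *CYP81H1*, with arrows in the direction of transcription. *CYP81D8* stands at 90.0 TPM after SNP against 11.8 TPM in the mock samples, next to *CYP81D2* and *CYP81D3*, which had almost no reads.

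The region before the annotated start was searched on both strands over 250 bases for TGACG and for TTGAC. The letters CACGTG, the G-box that bZIP and bHLH factors bind, were searched as well. TGACG and TTGAC share the letters TGAC and overlap in TTGACG, and each match was counted for its own motif. *CYP81D11* was the only one of the 10 members with TGACG in this window, 231 bases before the start, and it also held CACGTG 205 bases before the start. Among 27443 promoters of protein-coding genes, 18.6% held TGACG and 6.49% held CACGTG. *CYP81D8* held TTGAC 5 times. At least 1 copy was found in 44.9% of promoters, at least 4 in 0.721% and at least 5 in 0.113%. The shares for 4 and 5 copies were looked up after the match was seen. Of the copies of *CYP81D8*, 4 lay 66, 58, 50 and 42 bases before the start, in the 72 bases that separate it from its neighbor. The fifth and a CACGTG lay inside the neighboring gene. *CYP81D1* held TTGAC 1 time, 225 bases before the start. Of the members tested and not called, *CYP81D10* held TTGAC, and *CYP81D4* and *CYP81D5* held none of these letters. Of the members not tested, *CYP81D2* and *CYP81D7* held TTGAC, *CYP81D6* held CACGTG, and *CYP81D3* held none. Only 61 bases separate the start of *CYP81D4* from *CYP81D3*, so most of the window of *CYP81D4* lay inside that gene. The stretches that carry the matches in the called members are shown 5′ to 3′ with the matches to the 3 motifs in capitals (GTCAA is TTGAC on the other strand), all on the minus strand of TAIR10.1, at chr3:10790704-10790803 for *CYP81D11*, chr4:17571744-17571815 for *CYP81D8* and chr5:14256435-14256534 for *CYP81D1*.
CYP81D11: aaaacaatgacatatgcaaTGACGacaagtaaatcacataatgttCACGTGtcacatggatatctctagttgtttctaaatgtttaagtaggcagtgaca
CYP81D8: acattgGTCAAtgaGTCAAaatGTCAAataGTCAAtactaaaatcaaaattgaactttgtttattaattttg
CYP81D1: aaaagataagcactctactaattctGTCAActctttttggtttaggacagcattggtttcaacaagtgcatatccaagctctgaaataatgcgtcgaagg

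A match is a run of letters and not a shown binding site, and a missing match says nothing of sites elsewhere. The annotated start of *CYP81D11* lies 1 base before the start codon, and those of *CYP81D2*, *CYP81D6* and *CYP81D7* lie at the start codon, so their windows do not sit at a mapped transcription start. Over all tested genes with a promoter, 22.9% of those called higher, 20.1% of those called lower and 18.7% of those not called held TGACG. For TTGAC these shares were 51.2%, 44.1% and 43.7%, and for CACGTG 9.02%, 7.66% and 7.12%. With 50 bases after the start added to the window, *CYP81D3* also held TTGAC, as did 50.5% of all promoters, and the members with TGACG or CACGTG were the same.

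Among the genes listed as regulators of *CYP81D11*, not all of which act at its promoter, *SCL14* (AT1G07530) was higher after SNP. *SCL14* encodes a GRAS protein that binds class II TGA factors. It had 38.2, 54.1 and 45.7 TPM in the mock and 130.5, 133.5 and 137.8 TPM in the SNP replicates, with a limma log2 difference of 1.55 (standard error 0.13) and an adjusted p = 4.00e-04. The lists of regulators, redox partners and other CYP81 genes were also drawn up with earlier results of these data known. Their adjusted p-values are therefore a description and not independent evidence. The class II factor *TGA6* went from 7.72 ± 0.475 to 11.1 ± 0.239 TPM (SD, n = 3), with a log2 difference of 0.50 (standard error 0.10, adjusted p = 0.0109 from limma) that stayed under the fold change limit. *TGA5* and *TGA2* had log2 differences of 0.30 and 0.08 (adjusted p = 0.0834 and 0.549 from limma). *COI1*, the F-box protein of the jasmonate receptor, had a log2 difference of 0.39 (standard error 0.08, adjusted p = 0.0133 from limma), also under the limit. *ROXY19*, a glutaredoxin that binds TGA factors, had one of 0.51 (standard error 0.22) at a limma adjusted p = 0.118. The list thus had 1 of 6 tested genes called higher and 0 lower, beside 10.5% and 6.4% of all tested genes, so the count is near the background. The median log2 difference was 0.44 against 0.06 over all tested genes. The jasmonate factor *MYC2* was not analysed here.

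Of 8 genes whose products pass electrons to P450s, 1 was called, beside 16.9% of all tested genes. This was *ATR2* (AT4G30210), an NADPH-cytochrome P450 reductase, with 46.9, 71.1 and 69.7 TPM in the mock and 86.1, 99.3 and 101.2 TPM in the SNP replicates. Limma gave a log2 difference of 0.63 (standard error 0.17) at an adjusted p = 0.0320, and the difference was 0.43, under the fold change limit, without mock replicate 1. It was also not called without SNP replicate 1, 2 or 3, with an adjusted p up to 0.112 from limma. The second reductase, *ATR1*, had a log2 difference of 0.58 (standard error 0.14, adjusted p = 0.0235 from limma), and a ratio of means of 1.48, just short of 1.5. It was called without mock replicate 2, at 0.70. The cytochrome b5 gene *CB5-B* and the cytochrome b5 reductase gene *CBR1* had log2 differences of -0.45 and -0.41 (adjusted p = 0.0227 and 0.0118 from limma), both short of the fold change limit. *CB5-A*, *CB5-C*, *CB5-D* and *CB5-E* had log2 differences between -0.23 and 0.02. The median over the 8 genes was -0.09.

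Of 10 genes listed for their known response to xenobiotics, 10 were called higher, beside the 10.5% over all tested genes, with a median log2 difference of 4.05. The list was drawn up with results of these samples known and is not independent evidence. *GSTU1*, a glutathione transferase, went from 0.373 ± 0.161 to 37.9 ± 12.4 TPM (SD, n = 3), with a log2 difference of 5.42 (standard error 0.27, adjusted p = 5.53e-05 from limma). *UGT74E2*, a glycosyltransferase, went from 5.39 ± 0.350 to 174.9 ± 25.9 TPM, at 4.89 (standard error 0.12). AT5G61820 reached 301.8 ± 38.6 TPM after SNP from 16.8 ± 2.38 TPM. *GSTU24*, *GSTU25*, the MATE transporter *DTX1* and the aldo-keto reductase *AKR4C9* had log2 differences between 3.78 and 4.40, and *GSTU7* and the oxophytodienoate reductases *OPR1* and *OPR2* between 2.16 and 2.95. The difference of *CYP81D11* lay above all 10 of these and that of *CYP81D8* within their range.

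Among the other subfamilies of CYP81, *CYP81F1* (AT4G37430), which hydroxylates indole glucosinolates, was the only one of 4 tested genes called, beside 16.9% of all tested genes. It had 44.7, 54.4 and 49.8 TPM in the mock and 103.2, 108.7 and 87.5 TPM in the SNP replicates, and limma gave a log2 difference of 1.00 (standard error 0.12) at an adjusted p = 0.00144. *CYP81F4*, of the same pathway, had -0.82 (standard error 0.35, adjusted p = 0.120 from limma). A fit that blocked on replicate number called it lower (limma adjusted p = 0.0363), and without mock replicate 2 its log2 difference was -1.15 (adjusted p = 0.0409 from limma). *CYP81K1* and *CYP81H1* had 0.37 and -0.25. *CYP81F2*, *CYP81F3*, *CYP81G1* and *CYP81K2* stayed under the filter. *CYP81F3* had 0.0673, 0.134 and 0.110 TPM in the mock and 0.819, 0.431 and 0.405 TPM in the SNP replicates. *CYP81F2* and *CYP81G1* likewise had all SNP samples above their mock samples. Their means were 0.611 against 0.260 TPM and 0.217 against 0.0125 TPM. *CYP81K2* had all SNP samples below, at a mean of 0.0312 against 0.0789 TPM. These untested values rested on at most 57 reads per sample.

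**Figure D4:**
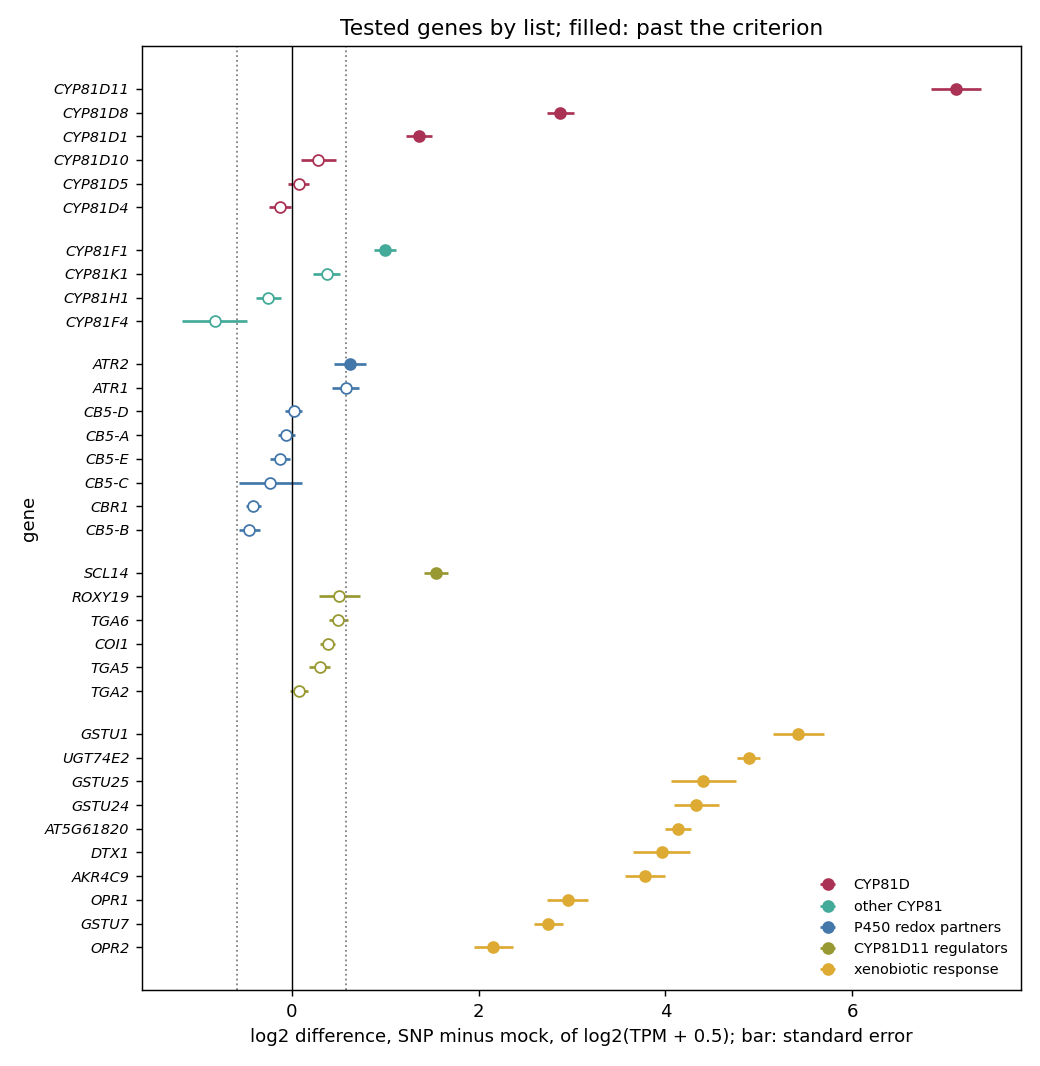
Log2 difference between SNP and mock samples, with its standard error, for the tested genes of 5 lists, filled where the criterion was met and with dotted lines at the fold change limit of 1.5. *CYP81D11* lies at 7.11, *CYP81D8* at 2.87 and *CYP81D1* at 1.36, the 10 xenobiotic response genes lie between 2.16 and 5.42, and the redox partners lie between -0.45 and 0.63.

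Genes with the most similar profile were sought among all tested genes by the root mean square distance between their 6 log2 values, each gene centered on its mean. The distance was taken on log2(TPM + 0.5), where the pseudocount pulls genes with values near 0 together, and it says nothing of a shared function. The gene nearest to *CYP81D11* was the nitrilase gene *NIT2* (AT3G44300) at a distance of 0.21, followed by AT3G20340 at 0.84 and the ferritin gene *FER1* at 0.87. *NIT2* had 0.554 ± 0.241 TPM in the mock and 123.8 ± 8.50 TPM in the SNP samples (SD, n = 3), so its levels resembled those of *CYP81D11* in both groups. AT3G20340 and *FER1* had ratios of means of 160 and 47.2 against 235 for *CYP81D11*. *FER1* was already at 80.2 ± 9.97 TPM in the mock samples. The genes nearest to *CYP81D8* were AT1G76470, the inositol transporter gene *INT2* and *PMAT1*, a malonyltransferase of phenolic glucosides, at distances of 0.12, 0.13 and 0.13. AT1G76470 had 0.0527, 0.0437 and 0 TPM in the mock and 4.30, 2.39 and 4.01 TPM in the SNP replicates, and *INT2* had a ratio of means of 13.8 against 7.63 for *CYP81D8*, so they were close to it on this scale and not in their ratios. *PMAT1* went from 23.3 ± 1.17 to 169.4 ± 8.83 TPM, a ratio of 7.26. The genes nearest to *CYP81D1* were *EFE*, an ethylene-forming ACC oxidase, *MYB13* and AT5G05965, at distances of 0.10 each. AT5G05965 was likewise near 0 in the mock samples, with at most 0.124 TPM, and its ratio of means was 9.66 against 2.91 for *CYP81D1*.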

How the data were processed

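Shoot apices were measured in 3 mock and 3 SNP samples, grouped by their titles. The authors deposited TPM per gene. The submitters' notes name STAR, FastQC, DESeq2 and the build TAIR10. The counter and gene filter are not given in the sources used here. The deposited log2 fold changes and p-values are the authors' own comparison, and these 3 columns were not used.

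Genes that averaged 0.5 TPM or more were tested with limma 3.58.1 in R 4.3.3 (lmFit, eBayes with trend) on log2(TPM + 0.5), with Benjamini-Hochberg adjustment over all 18966 genes. The methods call the 3 samples of each group biological replicates. Named genes were the members, listed genes, the 5 P450 genes with the largest called difference at either end, neighbors and the 3 nearest profiles. The members and lists were chosen with earlier results of these data known. Sequences and exon lengths were read from RefSeq, TAIR10.1, with Python 3.11.15 and Biopython 1.88; positions belong to that build. The exon lengths gave whole reads for 24014 of 24184 genes. Alternatives changed the pseudocount (0.1 or 1), filter (none or 1 TPM), scaling, eBayes options, block, samples, fold limit (2), adjusted p in place of p, tolerance (0.02), promoter window (50 bases more) and exon length trend (lowess, span 0.3).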

Additional observations from a re-analysis of the deposited data

How the results depend on the processing

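In all 18 alternatives, each leave-one-out fit included, 3 *CYP81D* members and 10 xenobiotic response genes were called. Over the alternatives the log2 difference of *CYP81D11* ranged from 6.56 to 7.81, that of *CYP81D8* was at least 2.76 and that of *CYP81D1* ranged from 1.23 to 1.49. *CYP81D4* ranged from -0.22 to -0.04 and *CYP81D5* from -0.01 to 0.13, neither called. A fold change limit of 2 can only lower the counts. It gave 1474 calls over all genes (against 3205) and 19 of the other P450 genes (against 40). Of the other CYP81 and of the redox partner genes 0 were called (against 1 each). *CYP81F1* fell just under this limit, with a log2 difference of 0.9996 and a ratio of means of 2.01. The other CYP81 genes called were 2 with no filter, which tests more genes, and 2 with the replicate block. The redox partner genes called were 0 with median of ratios scaling, 75th percentile scaling, eBayes without trend or the length trend removed. The cause was not tested. Leaving out 1 sample gave 2724 to 3339 genes over the whole table, 34 to 39 other P450 genes, 1 to 2 other CYP81 genes, 0 to 2 redox partner genes and 1 to 2 regulator genes (2 without SNP replicate 2, *ROXY19* being the addition). The sample titles do not say whether samples with equal replicate numbers were handled together. Deviations of equal numbers correlated at 0.30, 0.00 and -0.09, and those of unequal numbers at -0.29 to 0.32. The block gave 3457 calls over all genes. Among the members, redox partner, regulator, xenobiotic response and other CYP81 genes it changed no call except that of *CYP81F4*. Depth limits the 4 members with at most 16 reads per sample.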

Other observations

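Outside the CYP81D family, 111 further P450 genes were tested, of which 27 were called higher and 13 lower after SNP, beside 10.5% and 6.40% over all tested genes. The largest called increases were those of *CYP76C2*, *CYP71B15*, *CYP72A13*, *CYP72A8* and *CYP71B3*. *CYP71B15*, the last enzyme of camalexin synthesis, went from 1.34 ± 1.32 to 19.3 ± 5.60 TPM (SD, n = 3), with a log2 difference of 3.61 (standard error 0.47, adjusted p = 0.00228 from limma). *CYP76C2* went from 0.349 ± 0.0741 to 16.2 ± 2.85 TPM, at 4.28, and *CYP72A13* from 16.2 ± 4.78 to 171.4 ± 25.6 TPM, at 3.40, which puts its level after SNP next to that of *CYP81D11*.

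The largest called decreases were those of *CYP96A15*, *CYP82G1*, *CYP86A7*, *CYP86A4* and *CYP75B1*, with log2 differences of -1.44, -1.31, -1.17, -1.13 and -0.99. *CYP96A15* makes the secondary alcohols and ketones of stem wax and went from 25.2 ± 9.22 to 8.76 ± 2.74 TPM (SD, n = 3; adjusted p = 0.0167 from limma). *CYP86A4* and *CYP86A7* belong to the fatty acid hydroxylases of which several make cutin monomers, *CYP82G1* makes homoterpene volatiles, and *CYP75B1* is the flavonoid 3′-hydroxylase. *CYP75B1* went from 7.72 ± 0.757 to 3.65 ± 0.352 TPM (adjusted p = 0.00222 from limma).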
